A study of Mus musculus with 24 samples.

Results

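The hippocampus of 4 aged runners, BALB/c males of 18 months that lived with a running wheel for 8 weeks, was compared here with that of 6 adult sedentary mice, BALB/c males of 3.5 months that lived for the same 8 weeks in a standard cage without a wheel. These are 10 of the 20 mice in the series, chosen by the age and exercise condition in the sample labels, and they were read on 12 of its 24 arrays. The other 10 mice are 4 aged sedentary and 6 adult runners. All 20 mice were wild type and housed singly during the experiment, and they came from an in-house aging colony. Age and birth cohort cannot be told apart. The compared groups differ in age and in housing at once, and no locked wheel was used. The question was which transcripts in aged runners lay at the level of young, inactive mice and which did not. RNA of the whole hippocampus was hybridized to Illumina MouseWG-6 v2 arrays, which read each transcript with probes on beads. Aged exercise mouse 19 and adult sedentary mouse 6 were each read on a second array, which was averaged with the first. In bulk tissue, fewer cells of a type and less RNA per cell cannot be told apart.

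The aging hippocampus is known for a rise of immune transcripts, among them complement, MHC class I and interferon-induced genes, much of it in microglia and astrocytes, and for a loss of newborn neurons in the dentate gyrus. Wheel running is known to raise neurogenesis and growth factors such as Bdnf in rodents.

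Levels are log2 normalized intensities, and limma was fitted to the 20 mice together. A difference is given as aged runners minus adult sedentary mice, on the log2 scale, ± standard error. A probe was called higher or lower at an unadjusted p under 0.005, and its p adjusted by Benjamini-Hochberg over all probes is given beside it. A probe was placed at the adult sedentary level when it was not called and the 90% confidence interval of its difference lay inside a margin of 0.32 on the log2 scale, which is 25% up or 20% down. Remaining probes were undecided, which says nothing in either direction. Values of the aged runners are listed in the order of mice 2, 11, 16 and 19. Arrays detected 17485 to 19380 probes each, and the 2 arrays of a repeated mouse had r = 0.992 to 0.995 across probes. The filter for detection in at least 4 mice was passed by 13 of 16 markers of CA3 and CA2 neurons. It was also passed by 9 of 14 markers of dentate granule neurons. Markers of other regions passed too: 11 of 12 of thalamus and habenula, 12 of 14 of neocortex and 7 of 10 of striatum. Passing thus does not show which tissue was dissected. Of 18 choroid plexus markers 13 passed, and this tissue, which lies against the hippocampus, was unevenly present among the aged runners. The summed linear intensity of those markers was 6428 in aged runner 2 and 4956 in aged runner 19, against 51564 in aged runner 11, 32366 in aged runner 16 and 35166 to 62392 in adult sedentary mice.

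Far more transcripts of aged runners were placed at the adult sedentary level than called away from it, and how many depended on the margin. Of 19806 probes, 12398 (62.6%) lay at that level, 280 (1.41%) were called away from it, and 7128 (36%) were undecided. The called probes split into 133 higher (0.672%) and 147 lower (0.742%) and belong to 209 named genes. After adjustment 14 remained (0.0707%), 9 higher (0.0454%) and 5 lower (0.0252%). In 149 of the 280 the aged runners did not overlap the adult sedentary mice, and among all probes the groups did not overlap in 348 (1.76%). Without aged runner 2 the count of called probes was 175, and without aged runner 16 it was 184. Without both aged runners of low choroid plexus signal, which leaves 2 aged runners, 213 probes were called and 8451 (42.7%) lay at the adult level. With a margin of 20% in place of 25%, 9149 (46.2%) lay at it. Of the 280 called probes, 13 had a 90% interval inside the margin, so that a call does not mean a distance beyond it.

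Acer2, Il33, Xdh, Fas and Pglyrp1 were among the genes farthest above the adult level. Acer2, a ceramidase of the Golgi, measured 9.34, 9.54, 9.36 and 9.17 in the aged runners and 7.93 to 8.61 (median 8.24) in adult sedentary mice. Each aged runner thus lay above every adult sedentary mouse, by 1.08 ± 0.14 on average (adjusted p = 0.00163). Il33, an alarm cytokine stored in the nuclei of oligodendrocytes and astrocytes, stood at 9.85, 10.26, 10.17 and 9.74 against 8.86 to 9.32 (median 8.97). Again the groups did not overlap, and the difference was 0.95 ± 0.17 (adjusted p = 0.0287). Xdh, xanthine dehydrogenase, which forms uric acid, reached 6.30, 6.95, 6.10 and 6.07 in aged runners, while adult sedentary mice ranged from 4.83 to 5.72 (median 5.38). Its probe was detected on 1 of the 7 adult sedentary arrays, and the difference of 1.04 ± 0.21 missed the adjusted threshold (adjusted p = 0.0567). For Fas, a death receptor, the aged runners had 6.28, 6.51, 6.25 and 6.43 and the adult sedentary mice 5.13 to 5.90 (median 5.60), a difference of 0.78 ± 0.15 without overlap (adjusted p = 0.0567). The Fas probe was detected on 4 of the 7 adult sedentary arrays. Pglyrp1, a peptidoglycan-binding protein of innate immunity, read 9.01, 8.71, 8.31 and 8.59 against 7.79 to 8.06 (median 7.89), which is higher by 0.74 ± 0.13 (adjusted p = 0.0287).

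The same genes were read in the other 10 mice, as aged sedentary mice minus adult runners. Acer2 differed there by 1.09 ± 0.14, Il33 by 0.97 ± 0.17, Fas by 0.60 ± 0.15 and Xdh by 1.79 ± 0.21, each called higher. Pglyrp1 differed by 0.20 ± 0.13 and was not called. Its mean was 8.14 in adult runners and 7.91 in adult sedentary mice. Aged sedentary mice were called higher than adult sedentary mice in each of these genes, in Pglyrp1 by 0.43 (unadjusted p = 0.00327 in limma). Against aged sedentary mice, the aged runners had -0.20 for Acer2, 0.20 for Il33, 0.08 for Fas, 0.31 for Pglyrp1 and -0.57 for Xdh (unadjusted p = 0.0226 for Xdh), and none of these was called.

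A second group lay above the adult level in aged runners, while aged sedentary mice were not higher than adult runners. Avp, the vasopressin precursor, which neurons of the hypothalamus make, measured 6.75, 7.14, 6.88 and 7.12 against 5.49 to 6.61 (median 5.69). All 4 aged runners exceeded all adult sedentary mice, by 1.11 ± 0.31 (adjusted p = 0.23). In the other 10 mice the difference was -0.71 ± 0.31. Avp was the 1 member called of 6 hypothalamus markers, where 0.749% of all genes were called higher. The summed intensity of these markers was 341 to 524 in aged runners and 308 to 606 in adult sedentary mice. The Avp probe was detected on 5 of 5 aged runner arrays and on 3 of 7 adult sedentary arrays, and whether hypothalamic tissue bears on it was not tested. Rasd1, a Ras-like GTPase that dexamethasone induces, stood at 7.17, 6.74, 6.83 and 7.13 against 5.63 to 6.59 (median 6.22), higher by 0.78 ± 0.19 (adjusted p = 0.151), with -0.27 ± 0.19 in the other 10 mice. Igfbp6, which binds insulin-like growth factors, read 8.75, 8.98, 8.97 and 9.02 against 7.57 to 8.66 (median 8.09), a difference of 0.83 ± 0.26 (adjusted p = 0.344). Klhl40, known as a sarcomere protein of muscle, had 7.89, 7.65, 7.64 and 7.92 against 6.90 to 7.19 (median 7.05) and was higher by 0.73 ± 0.13 (adjusted p = 0.033), with -0.01 ± 0.13 in the other 10 mice. Such a difference does not show a level near that of adult sedentary mice. Adult runners had means of 6.91 (Avp), 6.63 (Rasd1), 8.79 (Igfbp6) and 7.71 (Klhl40). Those of adult sedentary mice were 5.86, 6.19, 8.10 and 7.05, and those of aged runners 6.97, 6.97, 8.93 and 7.77. Aged sedentary mice had 7.70 for Klhl40 and were called higher than adult sedentary mice (0.65, unadjusted p = 6.32e-05 in limma). The calls of Igfbp6 (any of 14 mice, then 0.73 to 0.89) and Avp (aged runner 11 or 19, then 1.06) ended when 1 mouse was left out. Those of Avp, Igfbp6 and Rasd1 (then 0.60) ended without both aged runners of low choroid plexus signal.

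**Figure D1:**
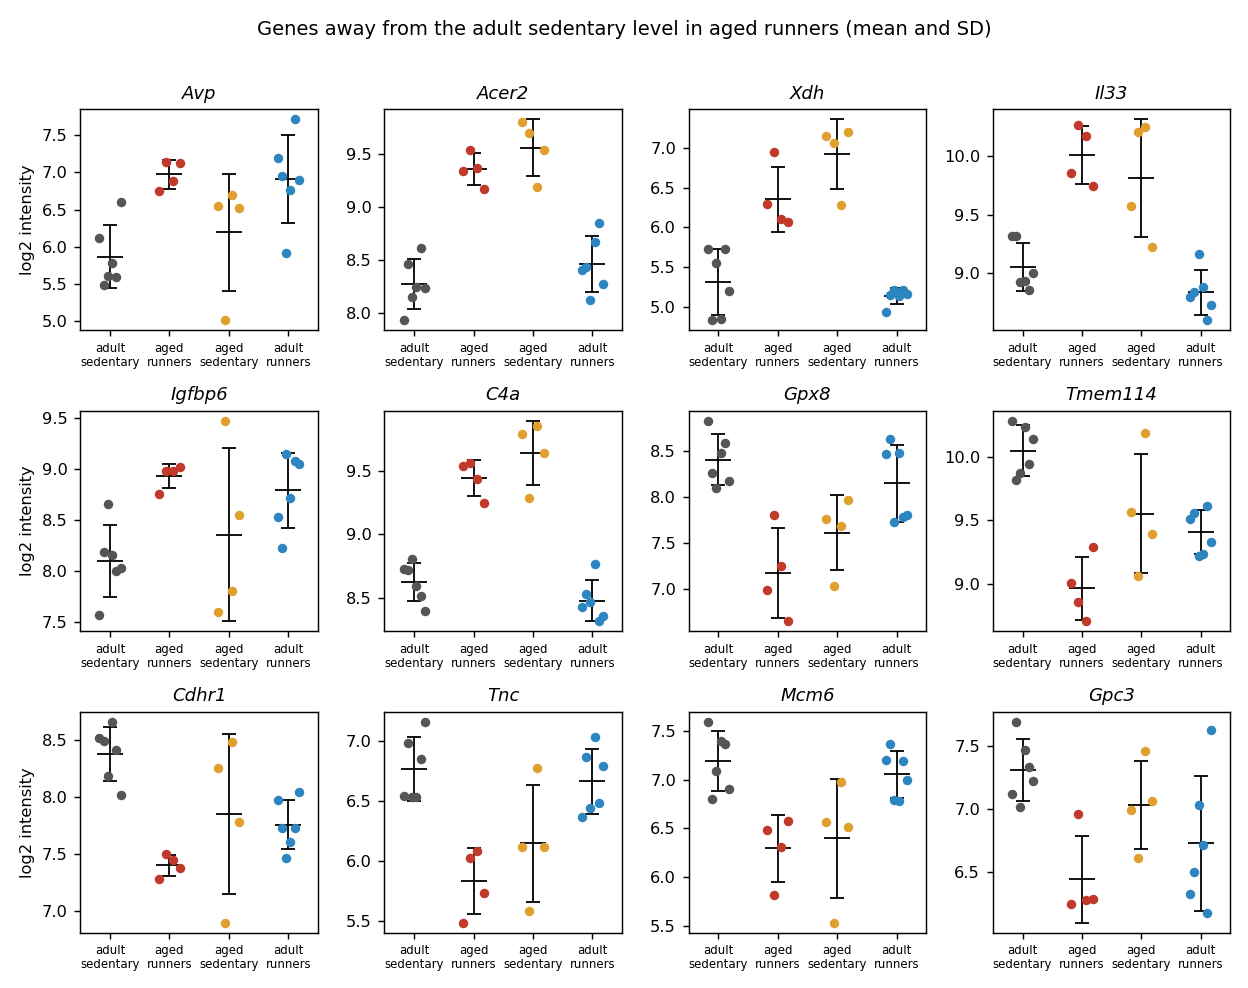
Log2 intensity in each mouse (points) with group mean and SD (bars) for the 6 largest increases and the 6 largest decreases among called genes without overlap. Aged runners and adult sedentary mice are separate in each panel. The choice did not use the aged sedentary mice and adult runners. In Acer2 and C4a the aged sedentary mice are close to the aged runners, and the adult runners to the adult sedentary mice. In other genes (Avp, Cdhr1) they spread widely.

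Gpx8, Tmem114, Tnc and Nos1 were among the genes farthest below the adult level. Gpx8, a peroxidase of the endoplasmic reticulum, measured 6.99, 7.81, 7.25 and 6.65 in aged runners and 8.10 to 8.83 (median 8.38) in adult sedentary mice. It lay lower in every aged runner, by -1.24 ± 0.22 (adjusted p = 0.033), and its brighter probe differed by -1.14 ± 0.22. Aged runners 2 and 19, of low choroid plexus signal, had the lowest values of the dimmer probe, and without both the difference was -0.88 (still called) and that of the brighter probe -0.84 (no longer called). The part of that signal in Gpx8 was not tested. Tmem114, a membrane protein, read 9.01, 8.86, 8.71 and 9.29 against 9.82 to 10.28 (median 10.04). The difference was -1.08 ± 0.16 (adjusted p = 0.00472), and that of aged sedentary mice minus adult runners was 0.14 ± 0.16. The means of aged sedentary mice (9.55) and adult runners (9.41) were both below that of adult sedentary mice (10.05). Aged sedentary mice were called lower than adult sedentary mice (-0.50, unadjusted p = 0.0047 in limma). Tnc, the matrix protein tenascin C, stood at 5.49, 6.03, 6.09 and 5.73 against 6.53 to 7.15 (median 6.69), lower by -0.93 ± 0.19 (adjusted p = 0.0596), and was detected on 3 of 5 aged runner arrays. Its call ended without the same pair of mice (then -0.71). Nos1, the neuronal nitric oxide synthase of interneurons, had 7.23, 7.21, 7.22 and 7.42 against 7.82 to 8.29 (median 8.05), a difference of -0.78 ± 0.18 (adjusted p = 0.117), with 0.19 ± 0.18 in the other 10 mice. Its means were 7.78 in aged sedentary mice and 7.59 in adult runners, both below that of adult sedentary mice (8.05). Nos1 was the 1 member called of 15 interneuron markers, 8 of which lay at the adult level, where 0.851% of all genes were called lower.

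Cdhr1, a cadherin known from photoreceptors, measured 7.28, 7.50, 7.45 and 7.38 against 8.01 to 8.66 (median 8.45), or -0.98 ± 0.20 (adjusted p = 0.0598). Gpc3, a glypican of the cell surface, read 6.25, 6.96, 6.28 and 6.29 against 7.02 to 7.69 (median 7.28), with aged runner 11 closest to the adult mice, and differed by -0.86 ± 0.23 (adjusted p = 0.197). Sncaip, which encodes synphilin, stood at 6.16, 6.24, 6.09 and 5.86 against 6.52 to 6.92 (median 6.79), lower by -0.67 ± 0.15 (adjusted p = 0.0788). Aged sedentary mice were lower than adult runners in Sncaip (-0.62 ± 0.15) but not in Cdhr1 (0.09 ± 0.20) or Gpc3 (0.30 ± 0.23). Their means and those of adult runners were 7.85 and 7.76 for Cdhr1, against 8.38 in adult sedentary mice. For Gpc3 they were 7.03 and 6.73, against 7.31. Nid2, a basement membrane protein (-0.71 ± 0.21), and Mia, a secreted protein of cartilage and melanoma cells (-0.68 ± 0.22), were called as well, but these calls ended without any of 6 mice (Nid2, then -0.73 to -0.60) or any of 11 mice (Mia, then -0.74 to -0.56). The Nid2 probe was detected on 1 of 5 aged runner arrays and on 6 of 7 adult sedentary arrays. Without both aged runners of low choroid plexus signal Gpc3 (-0.69), Sncaip (-0.59), Nid2 and Mia were not called.

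MHC class I genes present peptides of the cell's own proteins, and interferon raises them. In aged runners 3 of the 18 measured genes of MHC class I and peptide loading were called higher and 0 lower, 6 lay at the adult level and 9 were undecided. These 18, and the median and summed intensity of the list, include H2-Ke6, which is not a class I or peptide-loading gene. The median difference was 0.25, against 0.000294 over all 10814 genes, of which 0.749% were called higher. H2-D1, a classical class I heavy chain, measured 10.35, 10.75, 9.98 and 9.56 in the aged runners and 9.06 to 9.99 (median 9.36) in adult sedentary mice. Aged runners 2 and 11 lay above all adult sedentary mice and aged runners 16 and 19 inside their range, at a mean difference of 0.72 ± 0.18 (adjusted p = 0.18). H2-Q8 (0.84 ± 0.19, adjusted p = 0.0865) and H2-Q5 (0.58 ± 0.18, adjusted p = 0.301) were the other two called. B2m, the light chain shared by all class I molecules, read 12.03, 12.44, 11.97 and 11.35 against 11.21 to 12.02 (median 11.43). Its difference of 0.44 ± 0.16 was undecided (unadjusted p = 0.0112). In the other 10 mice these genes differed more, with a median of 0.52 over the list and 1.27 ± 0.18 for H2-D1. At the adult level were, among others, Tapbp, Calr and Pdia3 of the peptide-loading complex and the proteasome subunit Psmb10.

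Class I signal varied widely among the mice of a group. The summed intensity of the list was 18629 in aged runner 2, 21383 in aged runner 11, 17060 in aged runner 16 and 14448 in aged runner 19. Adult sedentary mouse 21 reached 18569, while the other adult sedentary mice lay between 14480 and 15516. In this sum, which includes H2-Ke6, aged runner 19 thus lay below every adult sedentary mouse. Adult sedentary mouse 21 was close to aged runner 2. The call of H2-D1 ended without aged runner 11 (then 0.52) and that of H2-Q5 without any of 6 mice (then 0.40 to 0.61), and class I heavy chains are so alike that a probe may read several of them.

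Class I promoters carry a binding element for interferon response factors a short way before the start. The letters TTTCNNTT, the core of an interferon-stimulated response element, were searched on both strands in the promoter windows of RefSeq (build GRCm38.p6, 250 bases before to 50 after each start). Of the 18 measured genes, 13 matched a RefSeq promoter, with 14 windows, and H2-Q5, H2-Q8, H2-T10, Tap2 and Tapbpl did not. H2-D1 is thus the 1 called gene among those searched. The letters occurred in 10 of these 14 (71.4%) and in 7857 of all 32851 windows (23.9%), in 9 of the 13 genes. The 10 count the same H2-K1 match in each of its overlapping windows. They also include H2-Ke6, which is not a class I or peptide-loading gene, so that the share overstates that of class I promoters. A match is a description of the letters and not a site. These stretches of 60 bases around the match (in capitals) are shown because H2-D1 was called and the others are its class I partners, 5′ to 3′ in the direction of the gene.
H2-D1, chr17:35262918-35262977, plus strand: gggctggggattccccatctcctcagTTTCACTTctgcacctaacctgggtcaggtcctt
H2-K1, chr17:34000404-34000463, minus strand: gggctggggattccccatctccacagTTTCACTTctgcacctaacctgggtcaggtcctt
H2-Q6, chr17:35424672-35424731, plus strand: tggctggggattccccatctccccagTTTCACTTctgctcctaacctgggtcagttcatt
H2-Q7, chr17:35439016-35439075, plus strand: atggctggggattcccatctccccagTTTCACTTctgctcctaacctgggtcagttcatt
B2m, chr2:122147524-122147583, plus strand: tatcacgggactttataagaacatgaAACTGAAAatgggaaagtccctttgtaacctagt
In B2m the match lies on the opposite strand. The heavy chains share the core and most letters around it. Their differences in aged runners were 0.72 for H2-D1, 0.61 for H2-K1, 0.54 for H2-Q6 and 0.31 for H2-Q7, the last 3 of them undecided.

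Complement tags cells and debris for uptake, and its component C4 was away from the adult level in aged runners. C4b measured 9.49, 9.67, 9.43 and 9.39 against 8.60 to 8.92 (median 8.79) in adult sedentary mice. The groups did not overlap (0.71 ± 0.11, adjusted p = 0.00907), and the neighbouring paralog C4a differed by 0.82 ± 0.11 on one probe and by 0.75 ± 0.12 on the other. C4a and C4b are near-identical, and the probes may read both. C4b was higher by 1.16 ± 0.11 in aged sedentary mice than in adult runners, and aged runners lay -0.30 from aged sedentary mice (unadjusted p = 0.0235, not called). Both were the members called of 10 complement genes, where 0.749% of all genes were called higher. C1qa, a subunit of the recognition protein C1q, lay at the adult level (0.15 ± 0.09). The summed intensity of the list was 6093 to 7159 in aged runners and 5363 to 5805 in adult sedentary mice, without overlap.

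Of 23 interferon-stimulated genes 1 was called, Ifit3, which blocks viral RNA translation (0.49 ± 0.16, adjusted p = 0.344, lost without any of 14 mice, then 0.30 to 0.52). Another 7 lay at the adult level and 15 were undecided, with a median of 0.16 here and 0.47 in the other 10 mice. Among 12 genes of activated microglia and MHC class II, 3 were higher (0.749% of all genes were): the lysozymes Lyz2 and Lyz1, which kill bacteria, and Cd52, a surface peptide of leukocytes. Lyz2 measured 8.29, 8.75, 8.13 and 7.58 against 7.13 to 7.45 (median 7.44), so that each aged runner was above, by 0.80 ± 0.19 (adjusted p = 0.149). Lyz1 differed by 0.68 ± 0.16 (adjusted p = 0.133), and a probe of one lysozyme may read the other. Cd52 (0.45 ± 0.14) lost its call without any of 6 mice (then 0.37 to 0.44) and without both aged runners of low choroid plexus signal. Of 17 general microglia markers 10 lay at the adult level, among them the resident markers Tmem119 (0.03 ± 0.09) and Aif1 (0.07), and 1 was lower (0.851% of all genes were). That was Fcrls, a surface protein of microglia, at 8.52, 8.00, 8.04 and 8.48 against 8.45 to 8.98 (median 8.70), or -0.44 ± 0.13 (adjusted p = 0.264, lost without any of 3 mice, then -0.38 to -0.35). Astrocyte markers numbered 16, with 11 at the adult level and 0 called.

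Part of the newborn neuron transcripts lay below the adult level in aged runners. Of 24 genes of neural progenitors and immature neurons, 5 were lower and 0 higher, where 0.851% of all genes were called lower, and the median was -0.16, with 4 of 24 positive. Dpysl3, a protein of growing axons, measured 8.00, 8.28, 8.16 and 8.15 in aged runners and 8.45 to 8.76 (median 8.53) in adult sedentary mice. It was lower without overlap (-0.42 ± 0.08, adjusted p = 0.0567). Sox4 and Sox11 are transcription factors of neuronal differentiation, and Sox2 maintains neural stem cells. Sox2 read 7.38, 7.41, 7.59 and 7.13 against 7.63 to 7.90 (median 7.73), and Sox4 7.77, 7.50, 7.91 and 7.41 against 7.91 to 8.22 (median 7.98). Both groups were separate, by -0.37 ± 0.11 for Sox2 (adjusted p = 0.278) and -0.38 ± 0.11 for Sox4 (adjusted p = 0.314). Islr2, a receptor-like protein of axons (-0.36 ± 0.11), and Sox11 (-0.43 ± 0.14, named after its value was seen, since the naming rule stopped at 4) completed the called genes. Doublecortin, Dcx, the usual marker of newborn neurons, was undecided at -0.34 ± 0.18. Summed over the list, the intensity was 47808 to 48359 in aged runners and 48893 to 53473 in adult sedentary mice, without overlap. The medians of the list were equal in both sets of 10 mice at -0.16, and that of aged runners minus aged sedentary mice was 0.04. Single genes were less alike. In the other 10 mice Dpysl3 differed by -0.45 ± 0.08 and was called. Sox4 (-0.22 ± 0.11), Sox2 (0.003 ± 0.11) and Islr2 (-0.02 ± 0.11) were not called there. Islr2 was called lower in aged runners than in aged sedentary mice (-0.48, unadjusted p = 0.000608 in limma). The calls of Sox2 and Sox4 (each any of 4 mice, then -0.37 to -0.29 and -0.36 to -0.30), Islr2 (any of 7, then -0.38 to -0.30) and Sox11 (any of 14, then -0.44 to -0.36) ended when 1 such mouse was left out. Without both aged runners of low choroid plexus signal these calls ended as well (Sox2 -0.25, Sox4 -0.32, Islr2 -0.33), while Dpysl3 stayed called (-0.35).

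Of 22 mitotic cell cycle genes, 2 were lower, 13 at the adult level (59.1%) and 0 higher, where 0.851% of all genes were lower and 65.7% at the level. Prc1, which bundles microtubules when cells divide, measured 5.98, 5.76, 5.75 and 5.49 against 6.11 to 6.67 (median 6.54), lower by -0.69 ± 0.13 (adjusted p = 0.0388), and was detected on 2 of 5 aged runner arrays and all 7 of the adult sedentary. Mcm6, a subunit of the replicative helicase, read 6.48, 5.82, 6.30 and 6.58 against 6.80 to 7.59 (median 7.22), or -0.90 ± 0.22 (adjusted p = 0.151). Of the other helicase subunits, Mcm2 (-0.03), Mcm4 (0.01), Mcm5 (0.02) and Mcm7 (0.02) lay at the adult level. Among 14 genes of oligodendrocyte precursors and differentiating oligodendrocytes, Gpr17, a receptor of the differentiating stage, measured 8.94, 8.27, 8.91 and 8.57 against 8.95 to 9.52 (median 9.27). The ranges met but did not overlap, and the difference was -0.56 ± 0.14 (adjusted p = 0.166). Tmem100 was also lower (-0.34 ± 0.09), Itpr2, a calcium channel, was higher (0.24 ± 0.08), and the precursor marker Pdgfra lay at the adult level (-0.15 ± 0.10). Gpr17 lost its call without aged runner 11 (then -0.43) and Itpr2 without any of 10 mice (then 0.18 to 0.26).

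Acta2, Myl9, Cldn5 and Itm2a, all markers of vessels, were called lower and Slc2a1 was called higher. Acta2, the actin of smooth muscle, measured 9.32, 9.79, 9.74 and 9.81 against 9.97 to 10.52 (median 10.42) in adult sedentary mice. All aged runners lay below (-0.67 ± 0.12, adjusted p = 0.033), and aged sedentary mice minus adult runners gave -0.01 ± 0.12. The means of these groups were 10.16 and 10.18, against 10.34 in adult sedentary mice. Myl9, a myosin light chain of smooth muscle, was lower by -0.41 ± 0.10 (adjusted p = 0.187), and these were the 2 members called of 11 markers of pericytes and smooth muscle, where 0.851% of all genes were lower and 0.749% higher. Of 14 endothelial markers 2 were lower, the tight junction protein Cldn5 (-0.51 ± 0.12, adjusted p = 0.109) and Itm2a (-0.37 ± 0.10, adjusted p = 0.198), and 1 was higher, the glucose transporter Slc2a1 (0.26 ± 0.07, adjusted p = 0.272). Choroid plexus markers, which are secretory and transport genes of the tissue that makes cerebrospinal fluid, were all negative (13 of 13, median -1.69) but 0 was called. Ttr, which carries thyroid hormone, stood at 12.38, 15.54, 14.90 and 12.01 against 15.01 to 15.70 (median 15.57), so that aged runners 2, 16 and 19 lay below the adult range and aged runner 11 inside it. Choroid plexus signal was uneven among these same aged runners, and its part in the vessel values was not tested. Without both aged runners of low choroid plexus signal Cldn5, Itm2a and Myl9 were no longer called, while Acta2 was (-0.57, unadjusted p = 0.000809). The calls of Itm2a (aged runner 2 or 19, then -0.34 to -0.32), Myl9 (aged runner 2, then -0.32) and Slc2a1 (any of 4 mice, then 0.20 to 0.24) ended when 1 such mouse was left out.

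**Figure D2:**
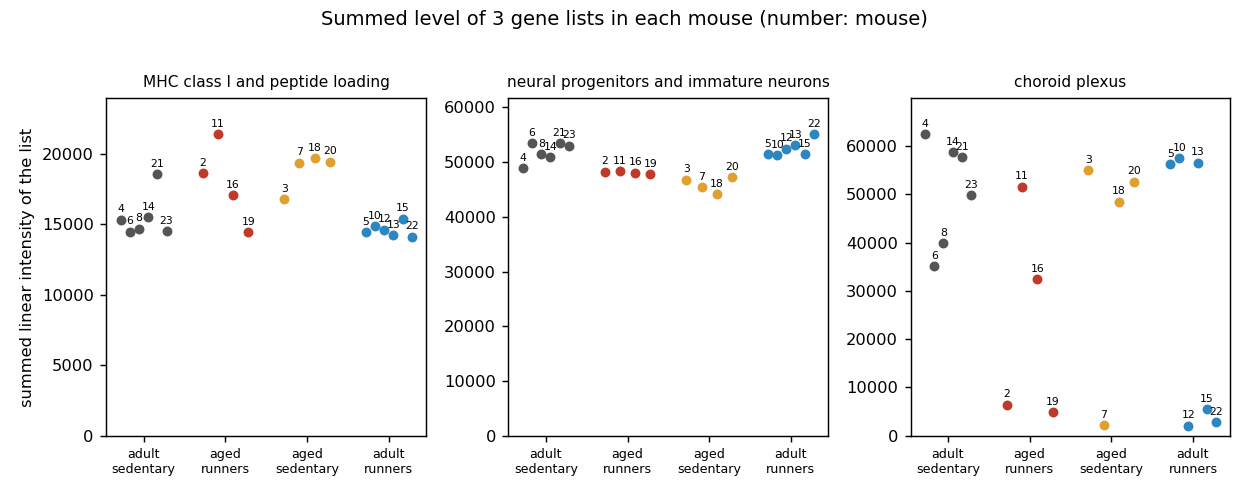
Summed linear intensity of the measured genes of 3 lists in each mouse, with the mouse number at each point. Class I signal overlaps between aged runners (14448 to 21383) and adult sedentary mice (14480 to 18569), immature neuron signal does not (47808 to 48359 against 48893 to 53473), and choroid plexus signal is low in aged runners 2 and 19 and in some mice of the other groups.

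To ask which transcripts changed in other mice lay at the adult level in aged runners, probes were selected in the 10 mice that enter neither compared group. Between aged sedentary mice and adult runners 1037 probes were called (5.24%), 534 higher (2.7%) and 503 lower (2.54%), and 443 after adjustment (2.24%). This selection shares no mouse with the comparison, although spread and normalization were estimated over all 20 mice, and the size of the change in the selecting mice is inflated by the selection. Of the 534 higher probes, 50 (9.36%) were higher in aged runners than in adult sedentary mice and 0 lower. Another 245 (45.9%) lay at the adult level and 239 were undecided. The median difference of the 534 was 0.11, against 0.46 in the selecting mice. Of them 434 were positive, where 50.3% of all probes were. Of the 503 lower probes, 22 (4.37%) were lower and 8 (1.59%) higher. Another 322 (64.0%) lay at the adult level and 151 were undecided. The median of the 503 was -0.03 against -0.36, and 290 were negative. The shares at the adult level stand beside 62.6% of all probes, and the shares called beside 0.672% higher and 0.742% lower. The median standard error, on which a place at the adult level depends, was 0.117 for the higher probes, 0.0962 for the lower and 0.109 over all probes. Read from the other side, 72 of the 280 called probes were called in the same direction in the other 10 mice, 8 in the opposite direction and 200 in neither.

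**Figure D3:**
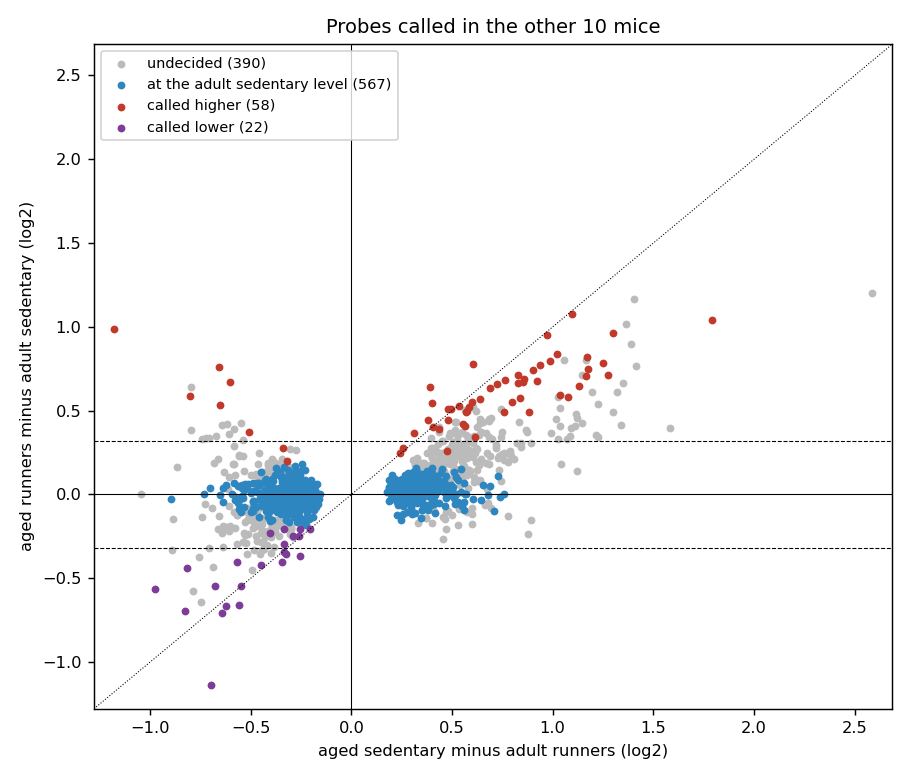
Each point is 1 of the 1037 probes called between aged sedentary mice and adult runners (x axis, log2 difference), with aged runners minus adult sedentary mice on the y axis (log2 difference). Dashed lines mark the margin of 0.32 and the dotted line equal differences, and 567 probes lie at the adult level, 58 are called higher, 22 lower and 390 undecided.

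Slc38a2, Pdk4, Nanos2 and Per3 were higher in the other mice and at the adult level in aged runners. Slc38a2, an amino acid transporter of neurons, measured 10.64, 10.94, 10.64 and 10.53 in aged runners and 10.45 to 10.85 (median 10.64) in adult sedentary mice. The 90% interval of the difference ran from -0.12 to 0.22, while aged sedentary mice exceeded adult runners by 0.69 ± 0.10. Pdk4, which inhibits pyruvate dehydrogenase and is induced by glucocorticoids, read 7.26, 7.88, 7.83 and 7.48 against 7.54 to 7.87 (median 7.71). Aged runners lay on both sides of the adult mice, and the interval was -0.30 to 0.11 (0.71 ± 0.12 in the other mice). Nanos2, an RNA-binding protein of germ cells, had 6.70, 6.85, 6.88 and 6.99 against 6.58 to 6.91 (median 6.73), with an interval of -0.06 to 0.28 and 0.73 ± 0.10 in the other mice. Per3, a repressor of the circadian clock, stood at 7.06, 7.59, 7.43 and 7.23 against 7.02 to 7.53 (median 7.26), an interval of -0.17 to 0.28 (0.66 ± 0.13 in the other mice). Azi2, a regulator of NF-kB, Neurl1a, a ubiquitin ligase, Tmem164 and Itih3, a carrier of hyaluronan, made up the rest, with differences of -0.03 to 0.01. For Azi2 and Itih3 the interval (-0.30 to 0.30 and -0.30 to 0.31) nearly filled the margin.

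Rasgrf1, Abhd12, Dclk1 and Ndst4 each had a probe that was lower in the other mice and at the adult level in aged runners. Rasgrf1, an exchange factor that couples calcium to Ras in neurons, measured 10.40, 9.90, 10.01 and 10.29 against 9.97 to 10.20 (median 10.09). Its interval was -0.12 to 0.25, against -0.58 ± 0.11 in the other mice. Abhd12, a lipase of lysophosphatidylserine, read 9.58, 9.42, 9.36 and 9.65 against 9.30 to 9.73 (median 9.42), an interval of -0.14 to 0.21 (-0.70 ± 0.10 in the other mice). The brighter Abhd12 probe also lay at the adult level (-0.03 ± 0.10) but was not called in the other mice (-0.11 ± 0.10). Dclk1, a kinase bound to microtubules, had on one probe means of 9.17 in aged runners and 9.20 in adult sedentary mice, an interval of -0.27 to 0.23 (-0.90 ± 0.15), and its brighter probe also lay at the adult level (0.03 ± 0.07) but was not called in the other mice (-0.17 ± 0.07). In Rasgrf1, Abhd12 and Dclk1 the ranges of aged runners and adult sedentary mice overlapped. Ndst4, an enzyme of heparan sulfate, had an interval of -0.30 to 0.30 at a low signal, with 4 of 5 aged runner arrays and 5 of 7 adult sedentary arrays detected. Fxyd2, Cstad, Rnf24 and Moxd1 differed by -0.04 to 0.05.

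Several of these genes also differed between aged runners and aged sedentary mice at the threshold. Aged runners minus aged sedentary mice gave 0.48 for the Abhd12 probe above (unadjusted p = 0.000272), 0.43 for Rasgrf1 (0.00145) and 0.51 for the dimmer Dclk1 probe (0.00425), and -0.50 for Nanos2 (0.000111) and -0.37 for Slc38a2 (0.0025). In that comparison 85 probes were called (0.429%), 0 after adjustment in limma, and 856 had an unadjusted p under 0.05 (4.32%). Between aged and adult sedentary mice 377 were called (1.9%). In the comparison of aged runners with aged sedentary mice, neither share exceeded the p threshold that defined it. That comparison shares the aged runners with the main comparison. It also shares the aged sedentary mice with the selection of these genes. These values are thus partly set by the choice and are no separate evidence.

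**Figure D4:**
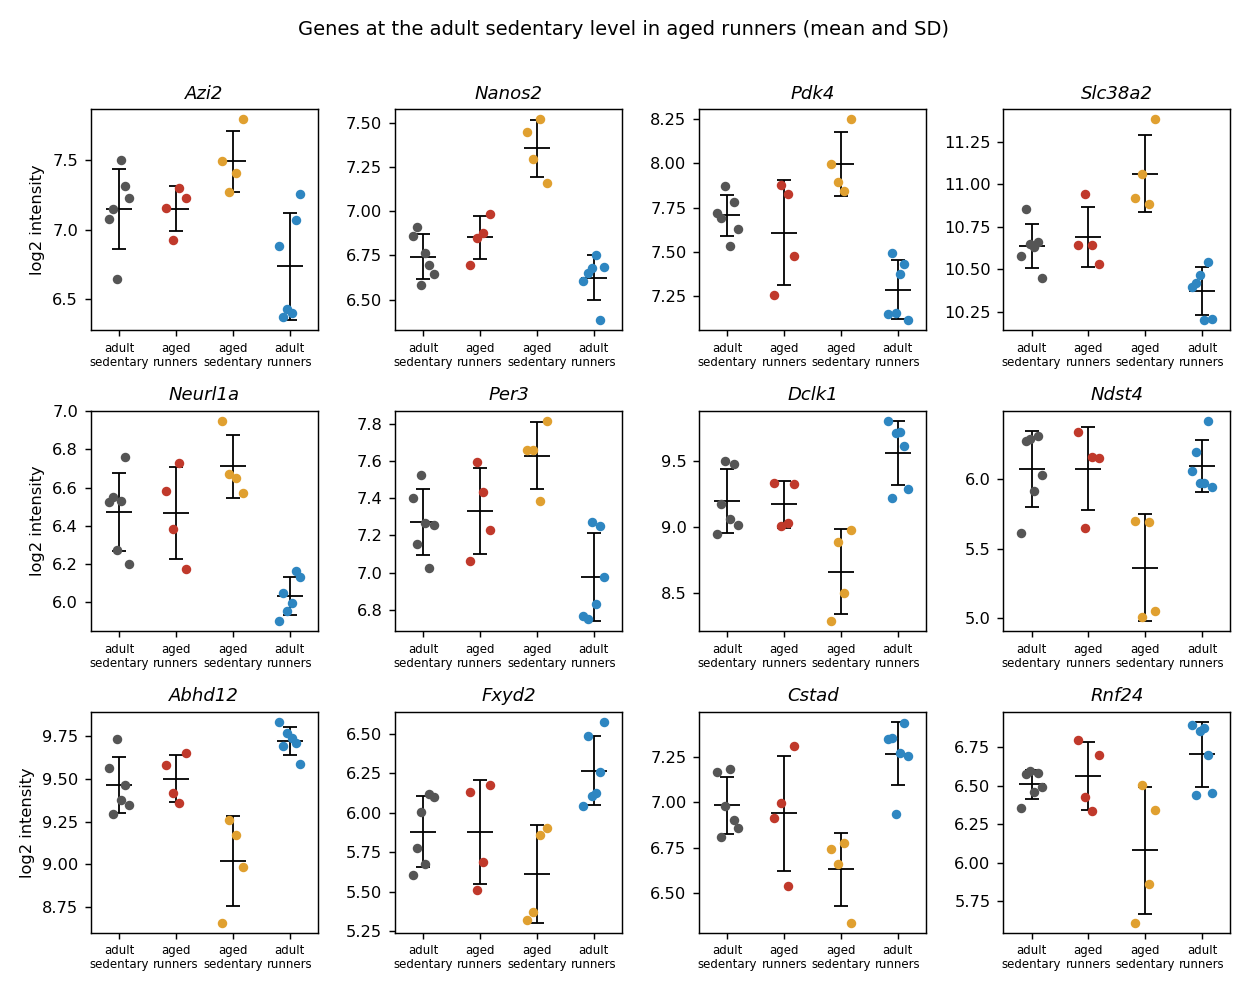
Log2 intensity in each mouse (points) with group mean and SD (bars) for 6 genes higher and 6 genes lower in aged sedentary mice than in adult runners that lay at the adult sedentary level in aged runners. The aged runners overlap the adult sedentary mice in each panel, and aged sedentary mice and adult runners differ because the genes were chosen by that difference.

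Histone genes of the replication-dependent kind package newly made DNA. Of 38 measured, 19 were lower in aged sedentary mice than in adult runners and 0 higher, with a median of -0.34. Of all 10814 genes 295 were lower there and 299 higher. In aged runners 0 of the 38 was called, 12 lay at the adult level and 26 were undecided, and the median was -0.08. H3c7 measured 6.69, 6.10, 6.02 and 6.34 in aged runners against 6.26 to 6.59 (median 6.46), an undecided difference of -0.14 ± 0.16 beside -0.89 ± 0.16 in the other mice. H1f2, a linker histone, differed by -0.23 ± 0.12 and -0.64 ± 0.12. Members of a histone family are near-identical, and a probe may read several of them.

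Glucocorticoid-induced genes respond to the stress hormone corticosterone. Of 23 measured, 8 were higher in aged sedentary mice than in adult runners, as were 299 of all 10814 genes. In aged runners 1 was called, Xdh, where 0.749% of all genes were called higher. Another 5 lay at the adult level and 17 were undecided, with 20 of 23 positive (50.1% of all genes were) and a median of 0.20 (0.33 in the other mice). Plin4, a coat protein of lipid droplets, read 7.40, 7.32, 7.70 and 7.08 against 5.62 to 6.45 (median 6.34), so that the groups did not overlap, yet its difference of 1.20 ± 0.40 missed the threshold in limma (unadjusted p = 0.00622). Hif3a, a hypoxia-inducible factor, stood at 8.03, 7.32, 6.95 and 7.81 against 6.40 to 7.05 (median 6.79), or 0.77 ± 0.29 in limma (unadjusted p = 0.0157). Over the list the summed intensity was 60819 to 64412 in aged runners and 55560 to 57933 in adult sedentary mice. This list, complement and immature neurons were the 3 of 41 lists whose sums did not overlap. The letters AGAACA, the core of a glucocorticoid response element, occurred on either strand in 5 of 31 promoter windows of 20 matched genes (16.1%) and in 19.0% of all windows.

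The circadian clock runs in hippocampal cells and is timed by light, feeding and activity. Of 18 clock genes, 7 were higher and 1 lower in aged sedentary mice than in adult runners (299 and 295 of all 10814 genes were). In aged runners 0 was called, 7 lay at the adult level and 11 were undecided. Per2, a repressor of the clock, measured 10.31, 10.18, 10.66 and 10.22 against 9.86 to 10.04 (median 9.92). All aged runners lay above, by 0.40 ± 0.17, but without a call (unadjusted p = 0.0287). Arntl, the activator of the clock, differed by 0.18 ± 0.12, beside -0.59 ± 0.12 in the other mice.

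Of 66 respiratory chain subunits 62 lay at the adult level (93.9%), of 37 chromatin remodelers 33 (89.2%) and of 28 splicing factors of the SR family and their kinases 23 (82.1%), where the share over all genes was 65.7%. Genes of synapse organization (25 of 34, 73.5%) and cholesterol synthesis enzymes (13 of 17, 76.5%) stood nearer to that share. The respiratory chain, remodeler and splicing lists had 0 called members. In the other 10 mice 0 respiratory chain genes, 2 remodelers and 4 splicing genes were called, all higher. Of all 10814 genes 299 were higher and 295 lower there. A place at the adult level thus does not show a return to it, and it depends on the standard error of the probe. Of the 34 synaptic genes 3 were called, where 0.749% of all genes were called higher and 0.851% lower. Syn3, a synapsin of vesicles (0.58 ± 0.14, adjusted p = 0.18), and Nrxn3, a presynaptic adhesion protein (0.44 ± 0.13, adjusted p = 0.264), were higher and Sncaip lower. Of 24 glutamate and GABA receptor genes, Gria3, an AMPA receptor subunit, was higher (0.28 ± 0.09, adjusted p = 0.317). The NMDA receptor subunit Grin3a read 10.22, 10.38, 10.43 and 10.47 against 10.63 to 11.29 (median 10.97) and was lower without overlap (-0.59 ± 0.15, adjusted p = 0.187). Nsdhl, an enzyme of cholesterol synthesis, was lower (-0.25 ± 0.08, adjusted p = 0.301). With 1 mouse left out the calls of Nrxn3 (any of 4 mice, then 0.35 to 0.41), Gria3 (any of 5, then 0.21 to 0.29) and Nsdhl (any of 7, then -0.26 to -0.22) were lost. Without both aged runners of low choroid plexus signal Grin3a (-0.56), Syn3 (0.54), Nrxn3 and Gria3 were not called.

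**Figure D5:**
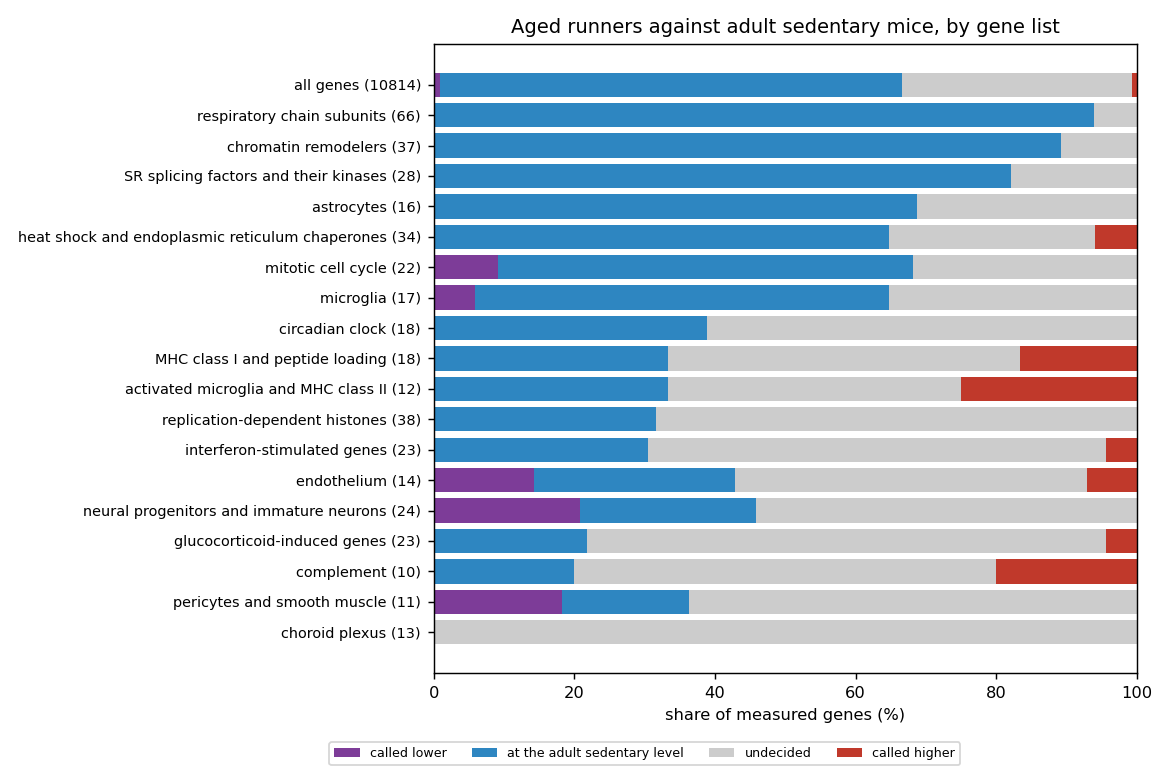
Share of measured genes (percent; number of genes in brackets) that were called lower, lay at the adult sedentary level, were undecided or were called higher in aged runners, for all genes and 18 lists. Respiratory chain genes lie mostly at the adult level (93.9%), and choroid plexus markers are all undecided.

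A small set was called in the direction opposite to the other mice. The 8 probes called higher in aged runners but lower in aged sedentary mice than in adult runners belong to Wnt2, Bdnf, Hsph1, Npb and Nbl1 and to 3 probes without a symbol. Wnt2, a secreted signal, measured 9.38, 8.58, 9.07 and 9.08 against 8.32 to 8.61 (median 8.43). Aged runner 11 lay inside the adult range and the other aged runners above it (0.59 ± 0.16, adjusted p = 0.226, and -0.80 ± 0.16 in the other mice). Bdnf, the neurotrophin that supports synapses, read 10.47, 9.73, 10.04 and 10.28 against 9.57 to 9.91 (median 9.78), again with aged runner 11 inside, and differed by 0.37 ± 0.12 (adjusted p = 0.351). Npb, the neuropeptide B precursor, stood at 7.83, 7.06, 7.27 and 7.69 against 6.58 to 7.12 (median 6.95), or 0.54 ± 0.16 (adjusted p = 0.318). The chaperone Hsph1 had 13.14, 12.83, 12.99 and 13.08 against 12.59 to 12.89 (median 12.85), or 0.20 ± 0.06 (adjusted p = 0.344), and its 90% interval of 0.09 to 0.31 lay inside the margin. In each of these genes, aged runner 11 was the lowest aged runner. Against aged sedentary mice the aged runners had 0.77 more Wnt2 (unadjusted p = 0.000259), 0.78 more Npb (0.000279), 0.41 more Bdnf (0.00477) and 0.25 more Hsph1 (0.00144). The genes were chosen by calls that used both of these groups. A positive difference was thus largely set by the choice and is no separate evidence. Chaperones as a list had 34 members, 22 at the adult level and 2 higher (0.749% of all genes were), the second being Bag3, a partner of Hsp70 (0.27 ± 0.07, adjusted p = 0.24). Calls were lost without aged runner 2 for Wnt2 (then 0.47) and Bag3 (then 0.21), and without any of 14 mice for Bdnf (then 0.26 to 0.41), any of 15 for Hsph1 (then 0.16 to 0.21) any of 5 for Npb (then 0.41 to 0.53) and any of 5 for Nbl1 (then 0.21 to 0.27). Wnt2 (then 0.39), Bdnf, Npb, Hsph1, Nbl1 and Bag3 were not called without both aged runners of low choroid plexus signal.

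The study's own ranking gives a list of genes higher with age and lower with running and one of the opposite kind, both chosen on these mice, so that their position is a description. Of 12 measured genes of the first list 7 (58.3%) lay at the adult level, where 65.7% of all genes did. Another 4 were undecided and 1, C4b, was higher, where 0.749% of all genes were. The median of this list was 0.05 here and 0.47 in the other 10 mice. At the adult level were Slc38a2, the splicing kinases Clk1 (0.01 ± 0.09) and Clk4 (0.02 ± 0.09), the growth factor receptor Igf1r (0.05 ± 0.08), Sema4b (-0.02 ± 0.08), the nuclear lamin Lmna (-0.05 ± 0.08) and the taurine transporter Slc6a6 (0.02 ± 0.06). Vwf, a clotting factor of endothelium, was undecided at 7.92, 8.68, 8.33 and 7.53 against 7.52 to 8.23 (median 8.00). In the second list 12 of 15 (80%) lay at the adult level, with medians of -0.03 and -0.43. Another 2 were undecided and 1, Fcrls, was lower, where 0.851% of all genes were. Dclk1 and Abhd12 count among the 12 by their brighter probes, which were not called in the other mice. Tubb2b, a tubulin of immature neurons (-0.02 ± 0.07), Ccnd1, a cyclin (0.01 ± 0.07), and Tmem158 (-0.01 ± 0.10) were among the 12. Among the genes also assayed by RT-PCR, Bdnf, C4b and H2-D1 were higher, Gpx8 was lower and B2m was undecided.

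The size of a difference at dim probes depends on the background correction. Without background correction the differences were 0.44 for Xdh, 0.32 for Fas, -0.43 for Tnc and -0.30 for Prc1, and in the authors' normalized values they were 0.21, 0.16, -0.23 and -0.15, all still called. The share of probes at the adult level was 89.4% without background correction and 94.3% in the authors' values.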

How the data were processed

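Hippocampal RNA of 20 mice was read on 24 arrays. The deposited intensities are probe signals that the authors exported without normalization, with a detection p-value per probe. The authors' normalized log2 values served as an alternative. Background correction and quantile normalization were done with neqc of limma 3.58.1 (offset 16) in R 4.3.3, repeat arrays were averaged with the mouse's first array, and probes detected (p under 0.01) on the first arrays of at least 4 mice were kept, 19806 of 45281. Group means were fitted with lmFit and eBayes (trend), and p-values were adjusted over all kept probes. Calls used the unadjusted p, unlike the study, which applied a false discovery rate adjustment and fitted array as a random effect. The scripts were tested on simulated data. Named genes are those with the largest differences among called genes without overlap, the largest differences in the other mice among genes at the adult level, the genes of the study's lists, those with the smallest p against aged sedentary mice, and up to 4 called genes per list (or else the largest differences). Other genes named, such as Plin4, Hif3a, Ttr, Dcx, Sox11 and Nbl1, were chosen after their values were seen. Members and lists were chosen with earlier results of these data known. P-values measure the spread between mice, whose number limits the precision.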

Additional observations from a re-analysis of the deposited data

Results flagged for a closer look

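Of 218 groups of values tested, 12 held 1 mouse far from the rest of its group by Dixon's criterion at 95%, and chance alone flags about 1 in 20 groups. Among aged runners, mouse 2 was low for Igfbp6 at 8.75 and for Acta2 at 9.32, mouse 11 was high for Gpc3 at 6.96 and for Tmem164 at 7.38, and mouse 19 was high for Nos1 at 7.42. Aged runner 16 stood out in the summed intensity of striatum markers, at 6012 against 2550 to 3074 in the other aged runners. Among adult sedentary mice, mouse 23 was low for Lyz2 at 7.13, mouse 6 was high for Tmem164 at 7.76 and mouse 4 was low for Lmna at 9.97. Adult sedentary mouse 21 had the highest class I sum of its group, 18569, and the lowest sum of clock genes, 20915 against 23051 to 24131. The sum of synapse organization genes was 179458 in adult sedentary mouse 8 and 156959 to 165133 in the others.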

How the results depend on the processing

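No paired analysis was possible because the groups share no mouse numbers. The main counts were 280 probes away from the adult level, 12398 at it and, of 1037 probes called in the other 10 mice, 567 at it and 80 away. With the authors' normalized values 18676 probes lay at the level, 867 of them called in the other mice, and with no detection filter 33609 did. Array weights gave 470 probes away. With adjusted p under 0.05, 14 were away, and of 443 called in the other mice 216 lay at the level and 6 away. A margin of 50% placed 864 of the 1037 at the level. Without both aged runners of low choroid plexus signal, an alternative chosen after seeing the data, 328 lay at the level. Leaving out 1 mouse gave 175 to 326 probes away (lowest without aged runner 2), 10709 to 12686 at the level, and 422 to 783 at and 56 to 93 away among those called in the other mice. With runs of 6 consecutive first arrays as a block, chosen after seeing the data because the array type holds 6 arrays on a chip and the sources used here do not say which array lay on which, 340 probes were away, and 807 of 1370 called in the other mice lay at the level. That block ended the calls of Nid2, Mia, Islr2, Ifit3, Hsph1, Nrxn3, Nsdhl and Cd52. A margin of 20% placed 9149 probes at the level. Median scaling gave 115 higher and 110 lower. No call of a named gene changed its direction under the alternatives run.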

Other observations

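Histone families differed in sign in aged runners, a split chosen after its values were seen. Against adult sedentary mice, 13 of 13 measured H2A genes and 6 of 6 H3 genes were negative, with medians of -0.17 and -0.14. In the H2B family 8 of 9 genes were positive, with a median of 0.14, and in the H4 family 9 of 9, with a median of 0.18. The medians by aged runner (2, 11, 16, 19) were 0.23, -0.04, 0.17 and 0.16 for H2B and 0.37, 0.09, 0.04 and 0.20 for H4, so that the sign of H2B was not shared by aged runner 11. In the other 10 mice all 13 H2A, all 9 H2B and all 6 H3 genes and 8 of 9 H4 genes were negative. None of the 38 histone genes was called in aged runners, and genes of a family share most of their sequence.

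The difference between the effect of running in aged and in adult mice, an interaction, was called for 26 probes at an unadjusted p under 0.005 in limma, 387 had a p under 0.05, and 0 passed adjustment.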
